A study of Mus musculus with 8 samples.

Results

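The endoplasmic reticulum (ER) genes described here comprise 40 genes that fold secreted and membrane proteins, dispose of those that fail to fold, or sense the load of unfolded protein. They were chosen by name and were taken in 3 roles, with 25 folding genes, 12 genes of ER-associated degradation (ERAD) and 3 stress sensors. Of the 45281 probes on the array, 18216 carried 1 gene name in the annotation used. Such a probe was found for 33 of the 40 genes. Of these, 32 passed the filter on dim probes (detected at p under 0.05 on 4 arrays or more), which left 20 folding genes, 10 ERAD genes and 2 sensors, and the sensor Atf6 was below it. Dnajb11, Manf, Canx, Uggt1, Ero1l, Derl1 and Edem3 were not analysed here. Older names were kept as listed, with Ero1lb now called Ero1b, Selk Selenok, Vimp Selenos and Ero1l Ero1a.

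The arrays read RNA of tumor-draining lymph nodes of 8 tumor-bearing mice. All 8 carried subcutaneous B16 melanoma, a transplantable mouse tumor line, grown to 30 to 40 mm2. In 4 mice the tumor was injected once with 3M-052, an injectable agonist of TLR-7/8, and in the 4 control mice with its vehicle, and nodes were excised on day 4. The general methods describe female C57BL/6 mice of 6 to 8 weeks, without restating this for the arrays, and the labels speak of tumor RNA in the extraction text and of lymph node elsewhere. A whole node mixes lymphocytes, myeloid cells, stroma and adhering fat, so that a higher signal from more cells of a type and from more RNA per cell cannot be told apart. Between 17817 and 20315 probes were detected per array, and 4 mice per group set the precision. Values per node are log2 normalized intensities, always in the order of replicates 1 to 4.

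Proteins destined for secretion enter the ER unfolded. BiP (Hspa5) and its partners hold them, calreticulin and calnexin bind their glycans, and disulfide isomerases and prolyl isomerases shape them, while mannose trimming by EDEM proteins marks failed glycoproteins for export through the SEL1L-HRD1 ligase complex to the proteasome. The sensors IRE1 (Ern1), PERK (Eif2ak3) and ATF6 start the unfolded protein response when this capacity is exceeded. In lymph nodes the pathway is best known from plasma cells, which enlarge their ER for antibody secretion, and Mzb1, Derl3 and Fkbp11 are known as genes of such secretory cells.

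The upstream regions of many members hold elements through which ATF6 and XBP1 are known to act on ER genes. The elements were searched on both strands in the RefSeq windows of GRCm38.p6 that run from 250 bases before to 50 bases after each start site. These were the ER stress element ERSE (CCAAT and CCACG separated by 9 bases), ERSE-II (ATTGG and CCACG separated by 1 base) and the core of the unfolded protein response element UPRE (TGACGTGG), none of which overlapped another in a member's window. A window was given for 35 of the 40 members, and 14 of these (40%) held at least 1 element, against 0.822% of all 32851 windows and 0.884% of the 27025 genes they belong to. ERSE alone was in 10 of the 35, against 0.119% of all windows. It was found in 8 of 22 folding genes, 2 of 11 ERAD genes and 0 of 2 sensors with a window. The members were chosen by name as ER genes, and these elements are known from ER genes. The excess over all windows thus follows from the choice of genes and is no finding of these data. A match describes these letters only and is no evidence of binding in these nodes.

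The elements of members that rose on the arrays are shown first, so that their spacing can be compared, each turned to read in the direction in which the element is defined, with 6 bases on both sides and the searched letters in capitals.
Derl3, chr10:75893236-75893266, minus strand: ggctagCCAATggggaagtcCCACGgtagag
Creld2, chr15:88819514-88819544, minus strand: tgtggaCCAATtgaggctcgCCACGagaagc
Calr, chr8:84847069-84847099, plus strand: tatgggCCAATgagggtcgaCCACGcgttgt
Txndc5, chr13:38528039-38528058, minus strand: cgccgcTGACGTGGcgctag
Txndc11, chr16:11134621-11134640, minus strand: tgtggcTGACGTGGagagtc

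The same elements also stood upstream of members that did not pass the test, of which the BiP gene Hspa5, the GRP94 gene Hsp90b1, the ligase gene Syvn1 and the ERSE-II of Herpud1 are shown for comparison.
Hspa5, chr2:34772019-34772049, plus strand: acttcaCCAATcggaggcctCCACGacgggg
Hsp90b1, chr10:86705632-86705662, minus strand: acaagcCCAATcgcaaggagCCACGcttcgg
Hsp90b1, chr10:86705527-86705557, plus strand: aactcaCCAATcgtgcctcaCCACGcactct
Syvn1, chr19:6046526-6046556, plus strand: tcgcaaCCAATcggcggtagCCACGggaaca
Herpud1, chr8:94386371-94386393, plus strand: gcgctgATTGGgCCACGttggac

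Hsp90b1 was the member with 2 ERSE copies in its window. Txndc5 has 3 windows and Txndc11 2, of which 1 each holds the UPRE core, before an alternative start and inside the annotated span of the gene (chr13:38500266-38528824 and chr16:11074911-11134645). The element lay at bases -156 to -138 from the start in Derl3, -126 to -108 in Creld2, -162 to -144 in Calr and -65 to -47 in Hspa5. Of the 11 members that rose and had a window, 5 held an element, as did 7 of the 19 measured members with a window that did not pass. To place the elements in their surroundings, the 250 bases upstream of the start are given for Derl3 and Creld2, both called members with an element, in the gene's direction and with the element in capitals.
Derl3, chr10:75893148-75893397, plus strand: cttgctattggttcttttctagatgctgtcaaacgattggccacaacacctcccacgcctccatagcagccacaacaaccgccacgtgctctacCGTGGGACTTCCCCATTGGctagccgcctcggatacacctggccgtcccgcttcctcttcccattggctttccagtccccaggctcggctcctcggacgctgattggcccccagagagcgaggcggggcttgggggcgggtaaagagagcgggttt
Creld2, chr15:88819396-88819645, plus strand: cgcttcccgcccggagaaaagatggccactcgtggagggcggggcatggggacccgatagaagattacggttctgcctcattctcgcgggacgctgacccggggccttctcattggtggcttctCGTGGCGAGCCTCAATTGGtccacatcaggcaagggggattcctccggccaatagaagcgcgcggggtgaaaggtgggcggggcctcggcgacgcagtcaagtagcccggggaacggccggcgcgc

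**Figure D1:**
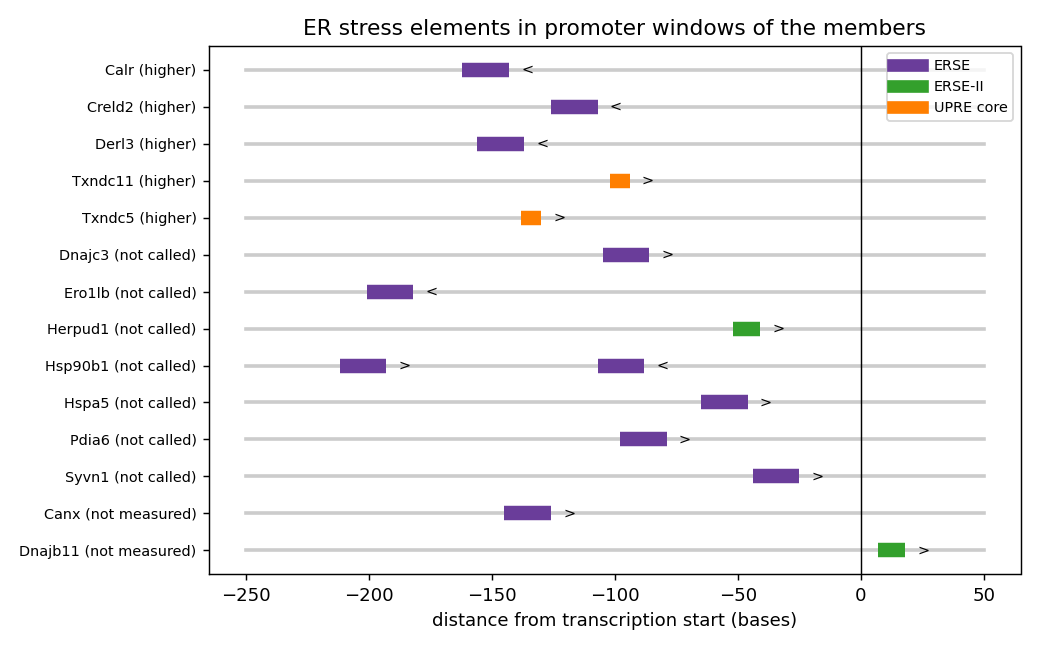
Position of ERSE, ERSE-II and UPRE core matches (colored bars) in the promoter windows of the 14 members that hold one, in bases from the transcription start, with the strand of the match as an arrowhead and the outcome on the arrays in parentheses. All matches but the ERSE-II of Dnajb11 lie upstream of the start of their window's transcript, and members that rose and members that did not pass both hold them.

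On the arrays, 12 of the 32 measured members were higher in 3M-052 nodes and none was lower, by limma with Benjamini-Hochberg adjustment over all 19462 probes tested (adjusted p under 0.05). That is 37.5% of the members, against 2.81% of all probes called higher and 2.29% called lower. The methods' t-test, adjusted in the same way, called 4 members higher and 0 lower, against 118 higher and 98 lower of the 19462 probes. The median log2 fold change of the members was 0.57, against -0.0098 over all probes, and single members ranged from -0.31 for Pdia5 to 2.25 for Derl3. In 14 of 32 members every 3M-052 array lay above every vehicle array, against 5.57% of all probes. Those that rose were 8 of 20 folding genes and 4 of 10 ERAD genes, and neither of the sensors above the filter passed. Whether the roles differ from each other was not tested.

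**Figure D2:**
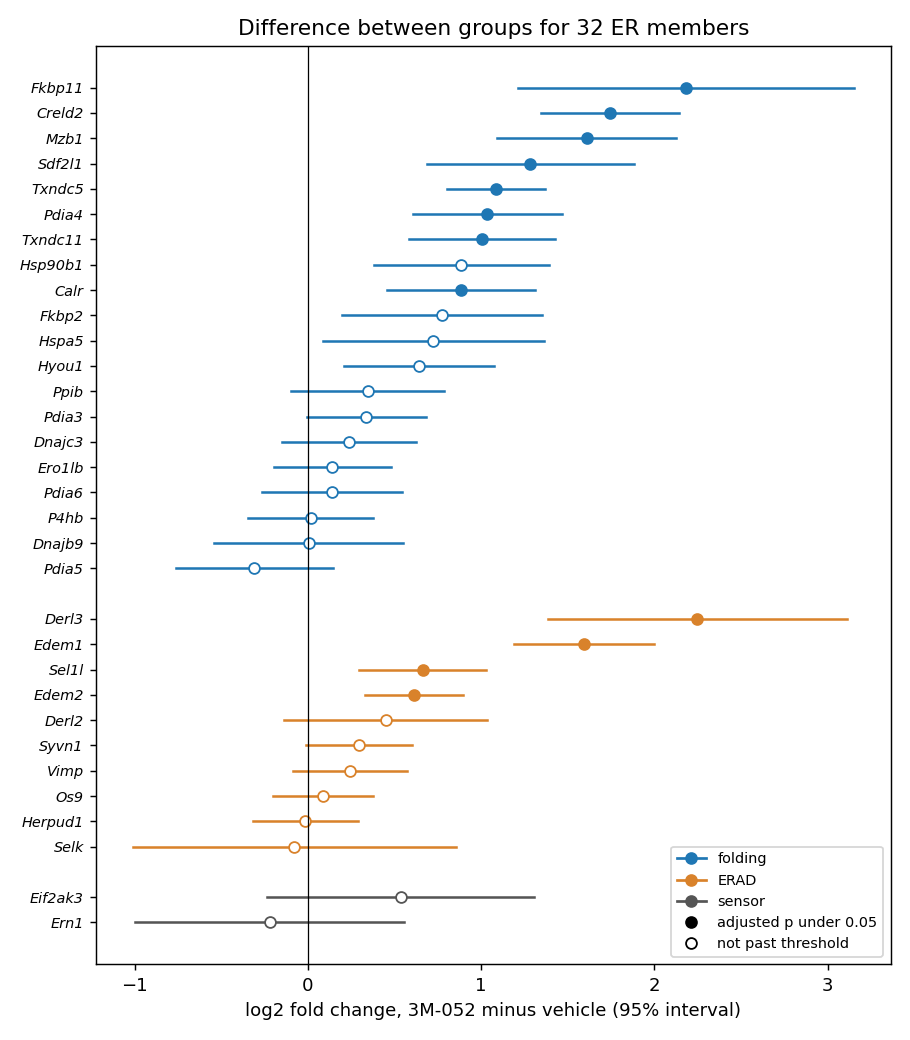
Log2 fold change (3M-052 minus vehicle, n = 4 arrays each) of the 32 measured members with 95% intervals, by role; filled circles mark an adjusted p under 0.05 from limma. Filled circles run from 0.61 (Edem2) to 2.25 (Derl3), and the interval of every sensor crosses 0.

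**Figure D3:**
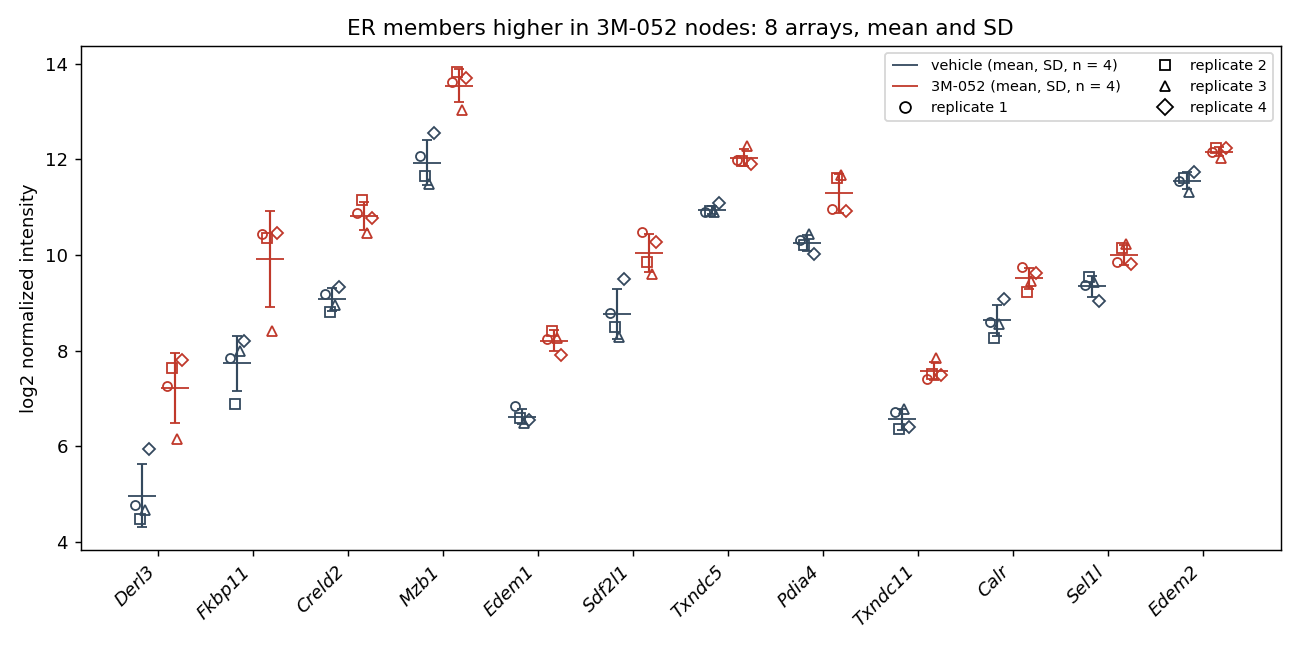
Log2 normalized intensity of the 12 members that rose, on each of the 8 arrays (symbols by replicate number) with the group mean and SD (n = 4). For every member shown the 3M-052 arrays lie above the vehicle arrays. 3M-052 replicate 3 is the lowest treated array for 6 of the 12, among them Derl3 and Fkbp11, and the highest for 4.

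In the set grouped here as BiP and its partners, 3 of 8 measured genes rose. The other 5, BiP itself among them, did not pass, and the median log2 fold change of the 8 was 0.80. Creld2, an ER protein induced by stress and thought to act on disulfide bonds, had log2 intensities of 10.88, 11.15, 10.45 and 10.78 over the treated nodes and 9.19, 8.80, 8.96 and 9.34 over the control nodes. The lowest treated node, at 10.45, stood well clear of the highest control at 9.34, and the 3.34-fold difference had the smallest adjusted p of the members (log2 fold change 1.74, standard error 0.18, adjusted p = 0.00039 from limma). A second Creld2 probe gave a log2 fold change of 1.58. Mzb1, the co-chaperone of GRP94 in B-lineage cells that takes part in antibody assembly, had log2 intensities of 13.62, 13.82, 13.03 and 13.69 over the treated nodes and 12.07, 11.65, 11.47 and 12.54 over the control nodes. Vehicle replicate 4 was the highest control, yet it stayed below the lowest treated node (log2 fold change 1.61, standard error 0.24, adjusted p = 0.0028 from limma). Sdf2l1, a component of BiP complexes, had log2 intensities of 10.48, 9.84, 9.59 and 10.27 over the treated nodes and 8.79, 8.49, 8.28 and 9.50 over the control nodes. The groups nearly touched, at 9.59 in 3M-052 replicate 3 and 9.50 in vehicle replicate 4 (log2 fold change 1.28, standard error 0.27, adjusted p = 0.021 from limma). The Sdf2l1 call ended when any of 5 arrays was left out (3M-052 replicates 1 and 4 and vehicle replicates 1, 2 and 3, adjusted p = 0.052 to 0.082).

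BiP itself was not called. The Hspa5 probe was dim, detected on 3 of 4 treated and 2 of 4 control arrays, with log2 intensities of 5.59, 5.78, 6.25 and 4.75 over the treated nodes and 5.12, 5.0, 4.83 and 4.54 over the control nodes. The groups overlapped, with 3M-052 replicate 4 at 4.75 below 3 of the controls (log2 fold change 0.72, standard error 0.29, adjusted p = 0.19 from limma). The call was made without 3M-052 replicate 4 (log2 fold change 1.03, adjusted p = 0.037), which was 1 of 19 alternatives and the only one to call it. Hsp90b1, the ER chaperone GRP94 whose clients include integrins and Toll-like receptors, had log2 intensities of 12.08, 13.07, 12.62 and 12.00 over the treated nodes and 11.71, 11.75, 11.61 and 11.16 over the control nodes. Its groups did not overlap, yet its adjusted p of 0.0505 fell just short of the threshold (log2 fold change 0.89, 95% interval 0.38 to 1.39). With the replicate number as a block it passed (adjusted p = 0.0056 from limma), as it did without 3M-052 replicate 4 (0.034). In all, Hsp90b1 was called in 5 of 20 alternatives. Hyou1, a nucleotide exchange factor of BiP, had a log2 fold change of 0.64 with groups that did not overlap (adjusted p = 0.090, or 0.048 in the blocked fit and 0.046 without 3M-052 replicate 4). These were the only 2 of 20 alternatives that called Hyou1. The co-chaperones Dnajc3 and Dnajb9 had log2 fold changes of 0.24 (95% interval -0.15 to 0.62) and 0.0047 (-0.54 to 0.55). Both intervals include 0 and also changes of 0.5 on the log2 scale.

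Of the lectin chaperones, which hold newly made glycoproteins, Calr alone was measured and rose. Calr, encoding calreticulin, had log2 intensities of 9.74, 9.23, 9.46 and 9.63 over the treated nodes and 8.61, 8.27, 8.56 and 9.08 over the control nodes. The highest control, vehicle replicate 4 at 9.08, lay just below the lowest treated node at 9.23 (log2 fold change 0.88, standard error 0.20, adjusted p = 0.026 from limma). The call ended without 3M-052 replicate 1 or 4 or vehicle replicate 1, 2 or 3 (adjusted p = 0.063 to 0.094).

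Of the disulfide enzymes, 3 of 8 rose, and their median log2 fold change was 0.24. Txndc5, a thioredoxin-domain protein of the disulfide isomerase family, had log2 intensities of 11.98, 11.96, 12.29 and 11.89 over the treated nodes and 10.90, 10.91, 10.89 and 11.08 over the control nodes. The control nodes lay close together, between 10.89 and 11.08, and apart from the treated nodes (log2 fold change 1.09, standard error 0.13, adjusted p = 0.00076 from limma), or 2.12-fold. Pdia4, the isomerase ERp72, had log2 intensities of 10.96, 11.61, 11.67 and 10.91 over the treated nodes and 10.32, 10.21, 10.44 and 10.03 over the control nodes. Treated nodes fell into a higher pair, replicates 2 and 3, and a lower pair, replicates 1 and 4, both above the controls (log2 fold change 1.04, standard error 0.20, adjusted p = 0.012 from limma). Txndc11, an ER membrane thioredoxin-like protein, had log2 intensities of 7.42, 7.51, 7.85 and 7.50 over the treated nodes and 6.72, 6.36, 6.78 and 6.40 over the control nodes. Here 3M-052 replicate 3 was the highest array (log2 fold change 1.00, standard error 0.19, adjusted p = 0.013 from limma), all 4 Txndc11 probes were called, with log2 fold changes of 0.91 to 1.94, and the call of the brightest ended with median centring (adjusted p = 0.13) and without vehicle replicate 2 (0.058).

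The remaining 5 disulfide enzymes did not pass. Pdia3, the isomerase ERp57 that works with calreticulin and in MHC class I loading, had a log2 fold change of 0.34 (95% interval -0.01 to 0.68). P4hb, the prototype protein disulfide isomerase, had log2 intensities of 12.30, 12.67, 13.02 and 12.38 over the treated nodes and 12.48, 12.71, 12.72 and 12.40 over the control nodes. These groups overlapped (log2 fold change 0.016, 95% interval -0.35 to 0.38). The oxidase gene Ero1lb had a log2 fold change of 0.14, and Pdia6 of 0.14 by its brightest probe but 0.80 by its second (adjusted p = 0.73 and 0.11). Pdia5 had the lowest log2 fold change of the members, -0.31 (95% interval -0.76 to 0.14), and same-numbered arrays differed by -0.43 to -0.24 (treated minus control).

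Of the prolyl isomerases, which speed the turning of proline bonds during folding, 1 of 3 rose. Fkbp11, the isomerase of secretory cells, had log2 intensities of 10.43, 10.35, 8.40 and 10.47 over the treated nodes and 7.85, 6.88, 8.00 and 8.20 over the control nodes. The other treated nodes were at 10.35 or more, while 3M-052 replicate 3 was close to the highest control, vehicle replicate 4 at 8.20 (log2 fold change 2.18, standard error 0.44, adjusted p = 0.018 from limma). The adjusted p was 0.075 when 3M-052 replicate 1 was left out, 0.053 when the first control was and 0.059 when the second was. Its relative Fkbp2 had log2 intensities of 10.84, 10.31, 9.55 and 10.72 over the treated nodes and 9.63, 9.26, 9.49 and 9.95 over the control nodes. For this gene 3M-052 replicate 3 lay within the control range (log2 fold change 0.77, standard error 0.26, adjusted p = 0.12 from limma), and Fkbp2 was called without that array (adjusted p = 0.014) and with the block (0.023). In all, Fkbp2 was called in 3 of 20 alternatives. Ppib, or cyclophilin B, had a log2 fold change of 0.34 (adjusted p = 0.37).

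In ERAD, the derlins form part of the channel through which failed proteins leave the ER, and of these Derl3 and Derl2 were measured. Derl3 had log2 intensities of 7.26, 7.64, 6.16 and 7.80 over the treated nodes and 4.78, 4.49, 4.67 and 5.94 over the control nodes. Its probe was detected on all 4 treated arrays and on 1 of 4 control arrays, vehicle replicate 4, so that it passed the filter through the treated group, and the lowest treated node at 6.16 was near that control at 5.94. Derl3 was called higher (log2 fold change 2.25, standard error 0.39, adjusted p = 0.0079 from limma), but the size of its change rests on that near-background control signal. Without background correction its log2 fold change was 1.41, below those of Fkbp11 (1.97), Creld2 (1.67) and Mzb1 (1.60), while in the main analysis it was above them. Derl2 had log2 intensities of 8.50, 7.98, 7.32 and 8.25 over the treated nodes and 7.52, 7.64, 7.13 and 7.96 over the control nodes. These groups overlapped (log2 fold change 0.45, standard error 0.27, adjusted p = 0.38 from limma).

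The EDEM proteins trim mannose from misfolded glycoproteins. Edem1 had log2 intensities of 8.24, 8.41, 8.27 and 7.91 over the treated nodes and 6.85, 6.59, 6.48 and 6.55 over the control nodes. The groups stood far apart, with the treated nodes at 7.91 or more and the control nodes at 6.85 or less (log2 fold change 1.59, standard error 0.18, adjusted p = 0.00067 from limma). Edem2, which makes the first cut, had log2 intensities of 12.15, 12.24, 12.02 and 12.23 over the treated nodes and 11.54, 11.62, 11.31 and 11.74 over the control nodes. The shift was smaller and the groups did not overlap (log2 fold change 0.61, standard error 0.13, adjusted p = 0.021 from limma), but the call was lost without 3M-052 replicate 1 or 4 or vehicle replicate 1, 2 or 3 (adjusted p = 0.056 to 0.078). Of the other Edem2 probes 1 was called and 2 were not, with log2 fold changes of 0.44 to 0.94. Os9, a lectin that reads the trimmed glycan, had a log2 fold change of 0.09 (95% interval -0.20 to 0.37).

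Relatives within the derlins, the EDEM genes and the prolyl isomerases are set side by side as a description only, since the pairs were chosen with the values known. The log2 fold change was 1.59 for Edem1 and 0.61 for Edem2, and 2.18 for Fkbp11 and 0.77 for Fkbp2. For Derl3, whose control signal was mostly not above background, and Derl2 it was 2.25 and 0.45, and 1.41 and 0.38 without background correction.

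Of the 5 genes of the ligase complex 1 rose. Sel1l, the adaptor that holds the HRD1 ligase, had log2 intensities of 9.86, 10.15, 10.22 and 9.80 over the treated nodes and 9.37, 9.55, 9.44 and 9.03 over the control nodes. The groups did not overlap (log2 fold change 0.66, standard error 0.17, adjusted p = 0.044 from limma), but leaving out any 1 of the 8 arrays ended the call (adjusted p = 0.054 to 0.12), and Sel1l was called in 5 of 20 alternatives. Its 3 other probes had log2 fold changes of -0.092, 0.54 and 1.26. The last was called, but it was dim, at a mean log2 intensity of 5.22, and detected on only 4 arrays. Syvn1, the HRD1 ligase, had a log2 fold change of 0.29 (95% interval -0.01 to 0.60) and Vimp, which recruits the p97 ATPase, of 0.24 (-0.09 to 0.57). Herpud1, an ERAD component induced by ER stress, had log2 intensities of 12.08, 12.67, 12.27 and 12.45 over the treated nodes and 12.40, 12.43, 12.33 and 12.35 over the control nodes. These groups overlapped, with the lowest and the highest array both from treated mice (log2 fold change -0.016, 95% interval -0.32 to 0.29). Selk, a selenoprotein of the ER membrane, spanned 6.33 to 8.23 over the 8 arrays, with a log2 fold change of -0.080 (95% interval -1.01 to 0.85).

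None of the sensor transcripts was called by limma (0 at an unadjusted p under 0.05). Ern1, encoding IRE1, the kinase and nuclease that splices the Xbp1 message, had log2 intensities of 6.22, 6.70, 6.22 and 5.28 over the treated nodes and 6.39, 6.90, 6.56 and 5.44 over the control nodes. Treated minus control nodes of the same number differed by -0.34 to -0.16, less than mice of a group differed from each other (log2 fold change -0.22, standard error 0.35, adjusted p = 0.79 from limma). Eif2ak3, encoding PERK, the kinase that slows translation under stress, had log2 intensities of 7.42, 7.08, 6.10 and 7.39 over the treated nodes and 6.31, 6.22, 5.98 and 7.33 over the control nodes. Vehicle replicate 4 was as high as most treated nodes, and 3M-052 replicate 3 as low as the controls (log2 fold change 0.54, standard error 0.35, adjusted p = 0.44 from limma). Atf6 was detected on 2 treated and 1 control array, at log2 intensities of 4.80 to 5.39 and 4.68 to 5.23, and was not tested. Array signal of a sensor's transcript does not measure its activation, which runs through splicing, phosphorylation or cleavage.

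Treated node 3 split the members. 3M-052 replicate 3 was the lowest treated array for 14 of 32 members, among them Derl3, Fkbp11, Creld2, Mzb1, Sdf2l1, Fkbp2 and Ppib, and the highest for 8, Txndc5, Pdia4, Txndc11, Hspa5, Sel1l, Pdia3, Syvn1 and P4hb. Over all probes tested it was the lowest treated array for 27.7% and the highest for 33.7%. 3M-052 replicate 4 was the lowest treated array for 12 members and vehicle replicate 4 the highest control for 16, against 24.5% and 35.4% of all probes. These counts describe 1 array each and were not tested. Before normalization, the mean intensity was 331 on 3M-052 replicate 4 and 306 on vehicle replicate 4, against 398 to 461 on the other arrays. Whether this bears on the members' values was not tested.

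**Figure D4:**
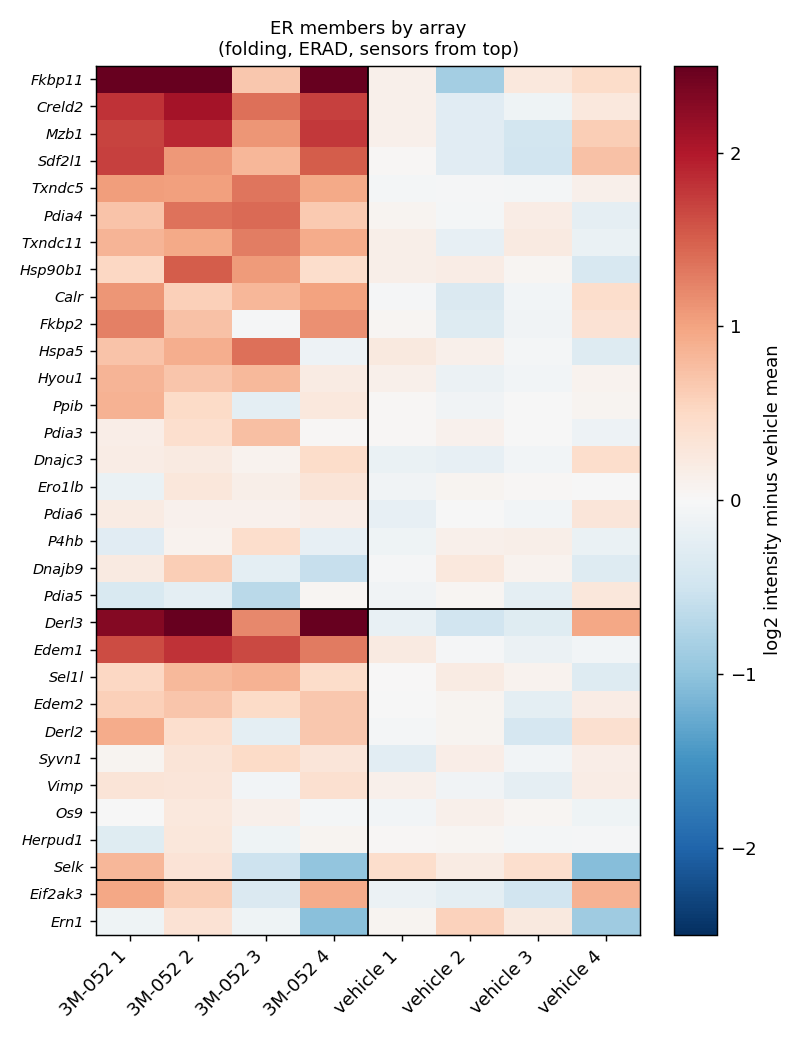
Log2 intensity of the 32 measured members on each array minus the mean of the 4 vehicle arrays, with folding genes, ERAD genes and sensors from top to bottom. 3M-052 replicate 3 is paler than the other treated arrays for Fkbp11 and Derl3 and darker for Hspa5.

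Other genes of the pathway were taken from a list of 58 further ER folding, glycan-trimming, ERAD and stress genes. Of 47 measured, limma called 2 higher and 2 lower, with a median log2 fold change of -0.020. Over all probes 2.81% were called higher and 2.29% lower, so that these few calls set the list little apart from other probes. Creb3l2, a membrane-bound transcription factor related to ATF6, was higher by 1.04 (adjusted p = 0.017), and Xbp1, the transcription factor of the IRE1 branch that plasma cells need, by 0.75 (standard error 0.13, adjusted p = 0.0071). Xbp1 had log2 intensities of 12.86, 13.27, 13.22 and 12.92 over the treated nodes and 12.29, 12.44, 12.22 and 12.31 over the control nodes, without overlap, and the probe was not examined for splice forms. Tmx4, a membrane disulfide reductase, had a log2 fold change of -0.61 (adjusted p = 0.032), and Fam8a1, a cofactor of the HRD1 ligase, -0.59 (adjusted p = 0.039).

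Markers of several cell types moved with the treatment. Of 10 measured plasma cell genes that are not members, 5 were higher and none lower by limma (9 higher and 1 lower at an unadjusted p under 0.05), and their mean log2 intensity was 8.80 to 9.03 in treated and 7.99 to 8.25 in control nodes. Tnfrsf17, 1 of the 5, was detected on 4 treated arrays and 1 control array, and Eaf2, 1 of the 9, on 4 and 0. Both passed the filter through the treated group, and the counts and means of this list include them. Xbp1 stands in both this list and the pathway list, and the surface marker Sdc1 was detected on 4 treated and 3 control arrays (log2 fold change 0.54, adjusted p = 0.21). Of 10 cell cycle genes 8 were higher (mean 9.40 to 9.95 against 8.00 to 9.04), of 8 T cell genes 6 were lower (10.5 to 10.9 against 11.4 to 11.8), and of 7 B cell genes none passed (0 higher and 1 lower at an unadjusted p under 0.05, 10.8 to 11.1 in both groups). Of 3 red cell genes 2 were lower. The part of these shifts in the members' values was not tested.

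Fat transcripts set several control nodes apart. The mean log2 intensity of 7 fat cell genes was 9.50, 10.4 and 10.6 in vehicle replicates 1 to 3, 6.86 in vehicle replicate 4 and 5.71 to 8.27 in treated nodes, and 4 melanocyte genes averaged 9.84 in the third of these controls against 5.36 to 6.14 in the other controls and 4.84 to 5.84 in treated nodes. None of these genes passed by limma, though 4 of the 7 fat and 2 of the 4 melanocyte genes were lower at an unadjusted p under 0.05. With the fat level as a covariate, 3 members were higher, Creld2, Edem1 and Txndc5 (log2 fold changes 1.71, 1.57 and 0.94, adjusted p = 0.0083, 0.013 and 0.018 from limma), while 159 probes were called higher in all. The median of the members in that fit was 0.49. Without vehicle replicate 3, 8 members were higher, and 390 of all probes, against 546 in the main analysis.

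The same 3 genes, Creld2, Edem1 and Txndc5, were called in all 20 alternatives computed for each. The methods' t-test, after adjustment, called them and Txndc11 only. Their log2 fold changes stayed at 1.63 to 1.87, 1.22 to 1.69 and 0.94 to 1.27, and Mzb1 and Pdia4 kept the call whichever single array was left out. Derl3 did so too, but it passed the filter through the treated group and drops out when detection on all arrays is required. The count of higher members fell to 7 when replicate 1 of either group was left out and to 6 when vehicle replicate 2 was. Calls over all probes fell as well, from 546 higher to 281 without 3M-052 replicate 1. They fell to 287 without vehicle replicate 1 and to 288 without vehicle replicate 2. The blocked fit called 15 members, since it added Hsp90b1, Fkbp2 and Hyou1 to the 12, and 1232 probes in all. The 12 were higher in each of the 4 pairs of same-numbered arrays, as groups without overlap must be.

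**Figure D5:**
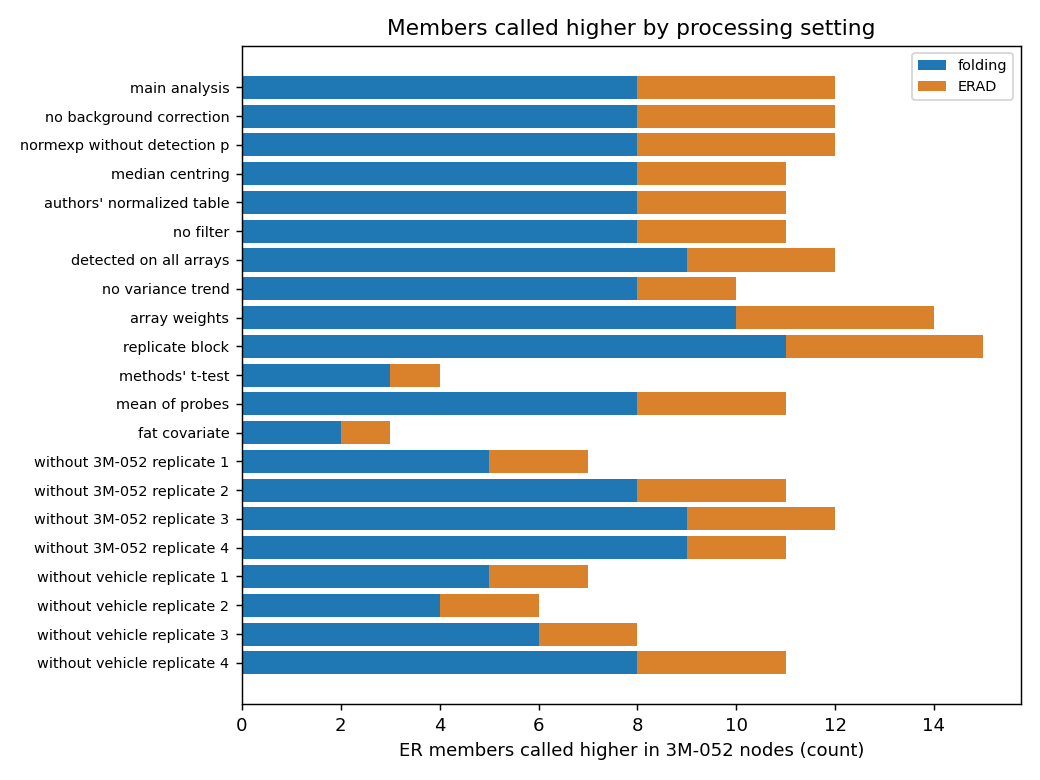
Number of members called higher in 3M-052 nodes (adjusted p under 0.05), split into folding and ERAD genes, in the main analysis and each alternative. The count is 12 in the main analysis, lowest at 3 with the fat level as a covariate and highest at 15 with the replicate number as a block.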

How the data were processed

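Total RNA of the nodes was amplified, labeled and hybridized to Illumina mouse whole-genome arrays. The authors deposited the bead intensity of each probe, summarized with GenomeStudio and not normalized, and a detection p-value against negative control beads. They also deposited a table of normalized intensity for 21765 probes, with the normalization not stated in the sources read. Its minimum was 29.6 on each array, its medians were 115 to 126, and its scale was taken as linear. Each column correlated best with its own array, at 0.984 or more, so that direction and array were settled and the normalization was not.

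The neqc function of limma 3.58.1 (R 4.3.3, offset 16) subtracted background estimated from the detection p-values, quantile normalized the arrays and took log2. Probes detected at p under 0.05 on 4 or more arrays were kept (19462). The test was lmFit followed by eBayes with a trend in the variance, and p-values were adjusted over the kept probes by Benjamini-Hochberg. Gene names came from the platform annotation, updated through gene identifiers. Of its probes 18216 have 1 name, 18196 of them with a matched identifier, and 8 have several and were left unnamed, as are 3048 kept probes. The brightest kept probe of a gene was used. The procedure was tested on simulated data.

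Each array is a separate mouse by the study's description. Replicate numbers are shared by the groups, and deviations from the group means correlated at 0.19, 0.43, 0.25 and 0.57 for numbers 1 to 4, over 0.1 in every pair. For each of the 4 numbers, the arrays correlated best with the array of the same number in the other group. Whether the numbers mark pairs is not stated in the design. The main test is unpaired, as in the methods. Members, lists, tests and alternatives were chosen with earlier results of these data known. Members past the threshold, the sensors, derlins and EDEM genes were named by rule, with Xbp1 and up to 6 called genes of the pathway list, and the other members were named to account for all 40. Alternatives changed the background correction, normalization, filter, variance model, array weights, pairing, test, probe choice and arrays, and a further fit used the mean of the fat genes as a covariate. Promoter sequences are from RefSeq (GRCm38.p6).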

Additional observations from a re-analysis of the deposited data

Results flagged for a closer look

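In 3 of 64 groups of 4 arrays (32 members in each treatment), 1 array stood apart from the others by Dixon's test, and chance flags about 1 group in 20. Fkbp11 was at a log2 intensity of 8.40 in 3M-052 replicate 3, against 10.35 to 10.47 in the other treated nodes. Txndc5 was at 11.08 in vehicle replicate 4, against 10.89 to 10.91 in the other controls. Selk was at 6.33 in vehicle replicate 4, against 7.60 to 7.83 in the other controls.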

How the results depend on the processing

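The direction of all 12 calls held in every alternative computed, while the number of calls did not. Since their groups did not overlap, the blocked fit, the array weights and the t-test, made on the same values, could not reverse it. With the methods' t-test, adjusted over all probes, 4 members were higher (3 folding, 1 ERAD) and 0 genes of the pathway list. Unadjusted, that t-test called 14 of 32 members higher and 0 lower, and no matching count over all probes is given here. With the fat covariate 3 members (2 folding, 1 ERAD) and 0 genes of the pathway list were higher. Without the variance trend 2 ERAD genes passed. With a median of 0.36, the members' log2 fold changes were lower under a normexp correction that ignores detection p-values. Leaving out 1 array gave 6 to 12 higher members, 4 to 9 folding genes, 2 to 3 ERAD genes, 1 to 3 genes of the pathway list and a median of 0.46 to 0.60. Over all probes the same fits called 281 to 667 higher. In every alternative 0 members were lower and 0 sensors higher. Ern1 changed sign with the fat covariate (0.18) and without 3M-052 replicate 4 (0.057), and was -0.52 to 0.057 when 1 array was left out. The cause was not tested. With the replicate number as a block 15 members were higher, which added Hsp90b1, Fkbp2 and Hyou1 and changed no other member's call, and over all probes the block called 1232 higher and 1499 lower, against 546 and 446. Median centring gave 428 and 145, with 11 members higher. The Derl3, Hspa5, Hyou1 and Atf6 signals lie near background, which limits their folds.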

Other observations

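Probes of a member differed in places. Dnajb9 had a log2 fold change of 0.0047 by its brighter and 0.46 by its dimmer probe (adjusted p = 0.995 and 0.54 from limma), Ero1lb of 0.14 and -0.43 (0.67 and 0.42), and Herpud1 of -0.016 and 0.035 (0.97 and 0.93). Among pathway genes outside the members, Prdx4, the peroxiredoxin of the ER, had a log2 fold change of 0.68 with overlapping groups (adjusted p = 0.077), and Dnajc1, an ER membrane co-chaperone, of -0.79, detected on 1 treated and 4 control arrays (adjusted p = 0.096). Both were chosen after their values were seen.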
